A study of Mus musculus with 12 samples.

Results

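The genes described here are the mouse cytochrome P450s of families 1 to 4 and the soluble glutathione transferases, taken as every protein-coding gene whose symbol begins with Cyp1, Cyp2, Cyp3 or Cyp4 and a letter, or with Gst, a class letter (a, m, p, t, k, o or z) and a digit. The rule found 105 genes among the 56748 of the deposited table, namely 82 P450s and 23 transferases. Brain messenger RNA was measured in 12 adult C57BL/6 mice, with 1 library per mouse and 4 mice per arm, of which 2 were female and 2 male. Mice of the PBS arm received sterile phosphate-buffered saline, the vehicle control. Mice of the LPS arm received lipopolysaccharide (LPS), a bacterial outer membrane component that activates innate immunity, at 0.5 mg/kg into the peritoneum on each of 7 days. In the LPS+DMA arm the same LPS schedule was combined with daily injections of N,N-dimethylacetamide (DMA), a small amide solvent, at a dose not given in the sources used here. No arm received DMA alone, so an effect of DMA without LPS was not measured. Brains were collected on day 7.

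P450s are haem enzymes that insert an oxygen atom into a substrate with electrons passed on by P450 reductase. Families 1 to 3 oxidise mainly drugs, pollutants and steroids, and parts of families 2 and 4 act on arachidonic acid, leukotrienes and other fatty acids. Glutathione transferases join the tripeptide glutathione to reactive molecules, including P450 products and the aldehydes of lipid peroxidation. Both families are best known from liver, where inflammation lowers many P450s, and are present at lower levels in brain glia, neurons and the cells of the blood-brain barrier.

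Transcript levels are given as FPKM, the fragments counted on a gene per kilobase of its length, scaled by the authors to the size of the library. Read counts recovered from these values summed to 27.5 to 41.4 M reads (M, megareads) per library, with a median of 34.4 M. A gene was taken as detected in a library at 3 or more reads. For a gene of 1 kb, 3 reads corresponded to between 0.0690 and 0.115 FPKM, a limit that covers counting error only. The libraries also differed in the brain regions and tissues they held, as marker genes showed. Gabra6, a receptor subunit of cerebellar granule cells, was above 1 FPKM in 4 libraries (PBS female replicate 1, LPS female replicate 1 and both LPS males) and at most 0.170 FPKM in the other 8. Summed over 10 markers of cortex and hippocampus, levels ran from 96.1 to 1192 FPKM in LPS, 642 to 1153 in PBS and 1044 to 1610 in LPS+DMA, with LPS female replicate 2 holding the highest LPS value. The sum of 12 choroid plexus markers was 254 to 2015 FPKM in LPS, 39.0 to 415 in PBS and 23.0 to 501 in LPS+DMA. Microglial markers, 6 genes, summed to 95.0 to 134 FPKM in LPS, 63.1 to 78.1 in PBS and 47.9 to 79.1 in LPS+DMA. Oligodendrocyte markers, 5 genes, summed to 963 to 1861 FPKM in LPS, 496 to 1356 in PBS and 403 to 905 in LPS+DMA. Ribosomal RNA genes held 0.0499% of reads in LPS female replicate 2, against 3.60% to 10.9% in the other libraries. That library thus differed from the other LPS libraries in more than its region markers. In tissue of this kind, fewer cells of a type and less RNA per cell cannot be told apart.

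Of the 105 genes, 32 were detected in all 12 libraries, 27 in some of them, 8 stayed under 3 reads everywhere and 38 had no read in any library. The split differed between the families. Among the P450s, 16 of 82 were detected in every library and 36 had no read at all, while 16 of 23 transferases were detected in every library and only Gsta1 and Gstp3 had no read. With 10 reads in place of 3, 30 genes were detected in every library and 47 in at least 1, against 59 at 3 reads.

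**Figure D1:**
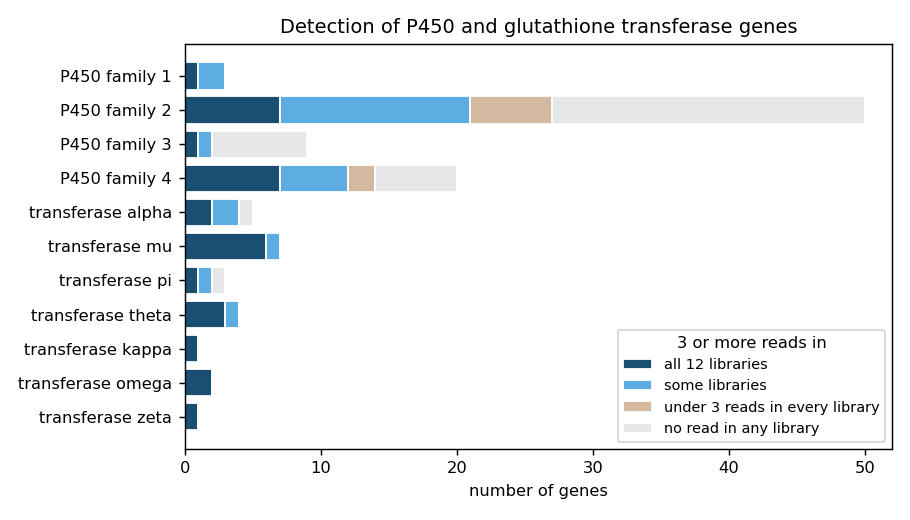
Number of genes of each P450 family and transferase class (bar length) by detection in the 12 libraries, coloured by whether a gene had 3 or more reads in all, some or none of them. Most family 2 and family 3 P450s fell in the groups with few or no reads, while 6 of the 7 mu transferases were detected in all 12 libraries.

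The P450s detected in every library were Cyp1b1 in family 1, Cyp2d22, Cyp2j6, Cyp2j9, Cyp2j12, Cyp2r1, Cyp2s1 and Cyp2u1 in family 2, Cyp3a13 in family 3, and Cyp4f13, Cyp4f14, Cyp4f15, Cyp4f16, Cyp4f17, Cyp4v3 and Cyp4x1 in family 4. The transferases detected in every library were Gsta3, Gsta4, Gstk1, Gstm1, Gstm2, Gstm4, Gstm5, Gstm6, Gstm7, Gsto1, Gsto2, Gstp1, Gstt1, Gstt2, Gstt3 and Gstz1. Detection in part of the libraries held for Cyp1a1, Cyp1a2, Cyp2a4, Cyp2a5, Cyp2ab1, Cyp2b10, Cyp2b19, Cyp2c23, Cyp2c65, Cyp2d26, Cyp2d40, Cyp2e1, Cyp2f2, Cyp2j8, Cyp2j13, Cyp2t4, Cyp3a57, Cyp4a12b, Cyp4a29, Cyp4b1, Cyp4f18, Cyp4f39, Gsta2, Gsta5, Gstm3, Gstp2 and Gstt4. Under 3 reads in each library were Cyp2c55, Cyp2c70, Cyp2d9, Cyp2d12, Cyp2g1, Cyp2w1, Cyp4a32 and Cyp4f37.

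The P450s without a read were mostly genes known from liver and kidney. They were Cyp2a12, Cyp2a22, Cyp2b9, Cyp2b13, Cyp2b23, Cyp2c29, Cyp2c37, Cyp2c38, Cyp2c39, Cyp2c40, Cyp2c50, Cyp2c54, Cyp2c66, Cyp2c67, Cyp2c68, Cyp2c69, Cyp2d10, Cyp2d11, Cyp2d13, Cyp2d34, Cyp2j5, Cyp2j7, Cyp2j11, Cyp3a11, Cyp3a16, Cyp3a25, Cyp3a41a, Cyp3a41b, Cyp3a44, Cyp3a59, Cyp4a10, Cyp4a12a, Cyp4a14, Cyp4a30b, Cyp4a31 and Cyp4f40. Several of these serve in liver as readouts of nuclear receptors, such as Cyp3a11 for the pregnane X receptor and Cyp4a10 and Cyp4a14 for PPAR alpha. The corresponding readouts of the aryl hydrocarbon receptor, Cyp1a1 and Cyp1a2, and of the constitutive androstane receptor, Cyp2b10, had a few reads. Cyp1a1 had 12 reads in LPS female replicate 1, 2 in LPS female replicate 2 and 6 in LPS male replicate 1, and none in the other 9 libraries. Cyp1a2 had 6 reads in LPS male replicate 2 alone, and Cyp2b10 had 4 in LPS female replicate 2 and 10 in LPS+DMA female replicate 1. These counts lie too near the detection limit for a comparison between arms. Liver markers were near 0, as 11 of them summed to at most 0.888 FPKM in a library and Alb, serum albumin, reached at most 0.136 FPKM.

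To compare arms, genes with at least 0.5 FPKM in at least 2 of the 12 libraries were tested, which kept 19571 genes in all and 32 of the 105 described here, 17 P450s and 15 transferases. They are the genes detected in all 12 libraries except Gsta3, which stayed below the filter, plus Cyp2e1, which was detected in 10 of 12. The other 73 genes were not tested. Cyp2e1 reached 0.5 FPKM only in LPS libraries, Cyp2r1 only in PBS libraries and Cyp3a13 only in males. The filter thus admitted each of these genes through the group where it was high. Sequence shared between genes limits some of these values. In reference transcripts, 4 of the 32 shared more than 10% of their 50-base stretches with another gene. Those were Gstp1 (62.3%, mainly with Gstp2), Cyp4f16 (26.5%), Gstm1 (23.1%) and Gstm6 (11.5%), whose counts are therefore uncertain as single genes. Among the untested genes the shared part reached 98.6% for Cyp3a41a, 93.5% for Cyp3a41b and 89.7% for Gsta1, all without a read, and 72.6% for Gstp2 and 64.2% for Gsta2, so their detection is uncertain as well. Gstm5 overlaps the opposite-strand RNA 4933431E20Rik (mean of 16.5 FPKM) and Gstz1 overlaps Pomt2. Gsto1 (10.05 FPKM) and Gsto2 (0.329) overlap opposite-strand Cfap43 (0.293), and untested Cyp2t4 (0.193) overlaps opposite-strand Egln2 (21.1) and Cyp4f18 (0.0648) Zfp961 (3.03). Untested Gsta3 (0.226) overlaps opposite-strand Gm28836 (0.251). It is not stated whether strand was used in counting. The overlaps are of whole gene spans, introns included, and shared exons were not looked for. If strand was not used, reads of these genes and of their partners cannot be told apart in any shared exons. This leaves the detection of Gsta3, Gsto2, Cyp2t4 and Cyp4f18 uncertain. Cyp3a13 (0.416) overlaps the same-strand pseudogene Gm15502 (0.320), although its reference transcript shared no 50-base stretch with another gene.

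Transferases were the more abundant family. Their summed level was 300.2 ± 17.2 FPKM (SD, n = 4 per arm here and below) in PBS, against 319 ± 14.5 after LPS and 275 ± 44.1 where DMA was added. The P450s summed to 52.5 ± 4.98, 52.1 ± 3.28 and 49.6 ± 4.80 FPKM in the same order. In both families the arms differed by no more than the spread of the LPS+DMA libraries. The 4 most abundant transferases made up 79.0% to 86.1% of the transferase sum in each library.

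Gstm1, a mu transferase of glia and liver, had the highest mean over the 12 libraries, 91.4 FPKM. Its values were 96.0, 88.1, 88.6 and 79.9 FPKM in PBS (female replicates 1 and 2, then male replicates 1 and 2, the order used throughout), 103, 95.9, 80.5 and 117 in LPS, and 77.5, 99.8, 104 and 66.9 in LPS+DMA. The arms overlapped throughout. Gstm5, the mu transferase best known from brain and testis, averaged 84.7 FPKM. It stood at 78.1, 89.9, 89.1 and 94.0 FPKM in PBS, 77.2, 96.9, 84.4 and 75.8 in LPS, and 79.9, 87.6, 106 and 57.1 in LPS+DMA. LPS+DMA held both its highest and its lowest value. Gstp1, the pi transferase, which also binds stress kinases, averaged 41.0 FPKM. Its values were 35.0, 32.6, 44.1 and 53.2 FPKM in PBS, 32.8, 37.8, 41.1 and 45.5 in LPS, and 53.7, 33.9, 49.6 and 32.9 in LPS+DMA, again with full overlap. Adjusted p-values of these 3 genes were between 0.435 and 0.895 in LPS+DMA against LPS. The mu genes lie side by side on chromosome 3, where the 6 tested members span 107803137 to 107952210 in the GRCm39 build of the table.

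The most abundant P450s were members of the 2J and 2D subfamilies. Cyp2j9, which makes epoxides from arachidonic acid, averaged 9.41 FPKM. It stood at 11.1, 8.20, 10.7 and 9.49 FPKM in PBS, 11.1, 6.77, 8.58 and 9.94 in LPS, and 5.88, 9.28, 10.3 and 11.7 in LPS+DMA. Cyp2j6, a neighbour on chromosome 4, averaged 7.51 FPKM. Its values were 6.99, 6.66, 8.55 and 9.38 FPKM in PBS, 6.14, 8.61, 8.56 and 7.91 in LPS, and 5.60, 6.05, 6.03 and 9.62 in LPS+DMA. In each of these genes the 3 arms overlapped. Cyp2d22, the mouse gene closest in use to human CYP2D6, averaged 7.54 FPKM. It was at 7.94, 4.72, 6.86 and 8.05 FPKM in PBS, 8.17, 6.10, 8.53 and 8.88 in LPS, and 6.14, 8.94, 9.70 and 6.48 in LPS+DMA. Cyp4x1, a P450 best known from brain that acts on anandamide, averaged 4.26 FPKM. It was at 4.19, 5.04, 5.09 and 4.65 FPKM in PBS, 3.66, 4.79, 4.91 and 3.77 in LPS, and 4.42, 3.61, 2.41 and 4.55 in LPS+DMA. LPS+DMA male replicate 1 held the lowest Cyp4x1 value, and the other LPS+DMA libraries lay within or just below the range of the other arms.

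**Figure D2:**
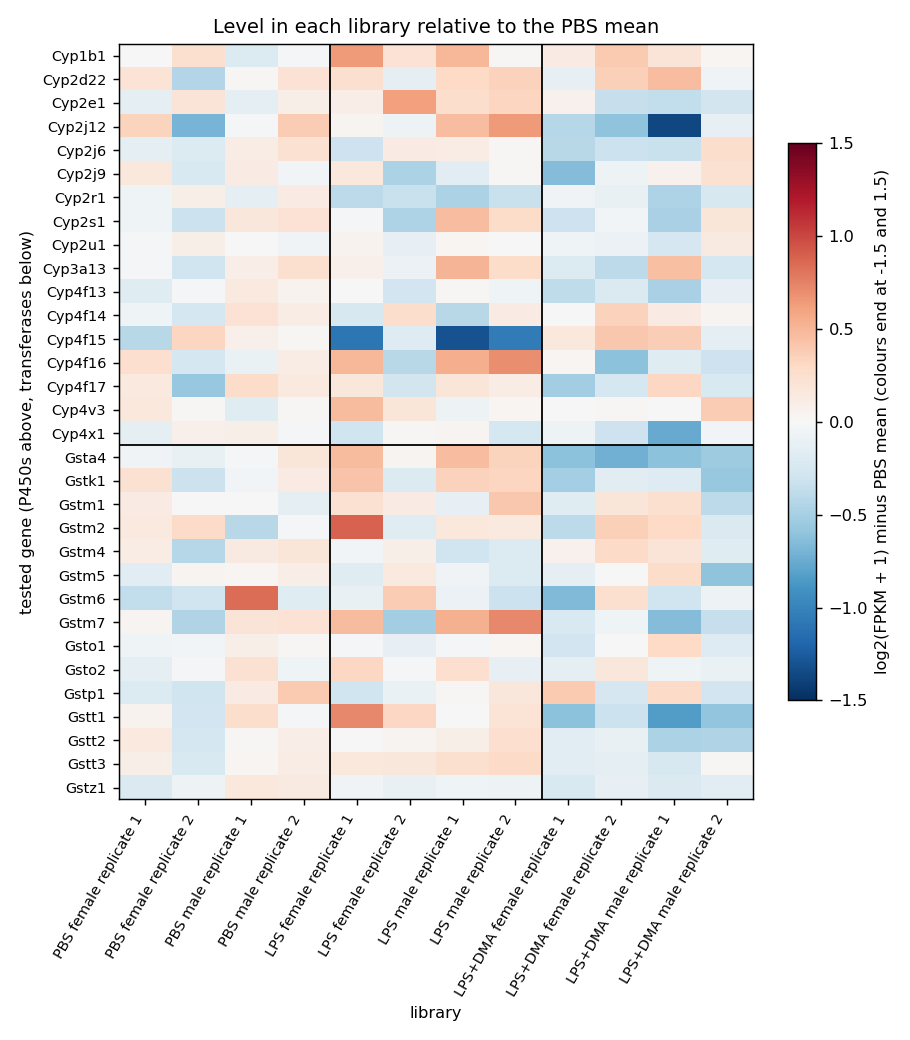
Level of each tested gene (rows, P450s above the line and transferases below) in each library (columns), as log2(FPKM + 1) minus the mean of the 4 PBS libraries. Gsta4 and Gstt1 are below the PBS mean in all 4 LPS+DMA libraries, as are other genes, among them Gstk1, Gstm7 and Gstz1. Cyp4f15 is lowest in LPS female replicate 1 and the LPS males.

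The first comparison asks how 7 days of LPS moved these genes. None of the 32 passed the test in LPS against PBS, where 2 of 19571 genes passed in all (0.0102%). The test was limma on log2(FPKM + 1) with sex in the model, with a Benjamini-Hochberg adjusted p under 0.05 over all genes tested. Mean log2(FPKM + 1) was higher in LPS for 18 genes and lower for 14, with a median change of 0.08 against -0.01 over all genes. Of all genes tested, 48.3% were higher. Of the 32, 4 had an unadjusted p under 0.05, against 2145 of 19571 genes in all. Cyp4f15, of the 4F group that oxidises leukotriene B and other fatty acids, averaged 4.54 ± 1.13 FPKM in PBS and 2.05 ± 1.17 in LPS (log2 change -0.90, SE 0.23, adjusted p = 0.280). Gsta4, the alpha transferase that conjugates the lipid aldehyde hydroxynonenal, averaged 29.0 ± 2.68 FPKM in PBS and 37.0 ± 5.06 in LPS (0.33, SE 0.11, adjusted p = 0.323). Cyp1b1, a P450 of blood vessel cells that oxidises oestradiol, averaged 0.842 ± 0.239 FPKM in PBS and 1.35 ± 0.451 in LPS (0.34, SE 0.15, adjusted p = 0.443). Cyp2r1, which hydroxylates vitamin D, averaged 0.461 ± 0.129 FPKM in PBS and 0.117 ± 0.0496 in LPS (-0.38, SE 0.13, adjusted p = 0.323).

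In 2 of the 32 genes every LPS library lay on the same side of every PBS library, a pattern shown by 6.89% of all genes tested. Cyp2r1 was at 0.392, 0.551, 0.315 and 0.587 FPKM in PBS and at 0.112, 0.152, 0.0496 and 0.157 in LPS. Each LPS value was below each PBS value, on 4 to 13 reads per LPS library. Only PBS libraries reached the 0.5 FPKM of the filter, so Cyp2r1 was tested through the arm where it was high. The LPS+DMA libraries stood at 0.401, 0.344, 0.0577 and 0.236 FPKM, between and across the other arms. Gstt3, a theta transferase, was at 0.904, 0.529, 0.839 and 0.938 FPKM in PBS and at 0.998, 1.02, 1.12 and 1.20 in LPS. Its change was 0.21 (SE 0.12, adjusted p = 0.531). Leaving out LPS female replicate 2, the LPS library without Gabra6, brought Cyp4f15 past the threshold (-1.14, adjusted p = 0.0127), and 672 genes then passed over the whole table.

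The second comparison asks how the brains of mice given DMA beside LPS differed from those given LPS alone. Here 4 of the 32 genes passed, against 9.67% of all genes tested. Gsta4, Gstt1 and Cyp2e1 fell and Cyp4f15 rose, and Cyp2e1 had entered the test only through LPS libraries. Over all genes, 3.88% passed as lower and 5.79% as higher. Mean log2(FPKM + 1) was lower in LPS+DMA for 26 of 32 genes, 13 of 17 P450s and 13 of 15 transferases. Of all genes tested, 51.1% were higher. In limma, 10 of the 32 had an unadjusted p under 0.05, against 5564 of 19571 genes in all. The median change was -0.18 against 0.01 over all genes. The deposited scaling itself differed between arms. FPKM times length in kilobases summed to 1029078 to 1103278 in the LPS+DMA libraries and to 916956 to 988684 in the others. With every library scaled to the same total, the median over all genes moved to -0.11 and that of the 32 to -0.33, and 28 of 32 were lower. Under that scaling 9 members passed, 1 higher and 8 lower, while over all genes 589 passed as higher and 2285 as lower in place of 1133 and 759. This comparison and LPS against PBS share the 4 LPS libraries, so their changes are not independent.

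**Figure D3:**
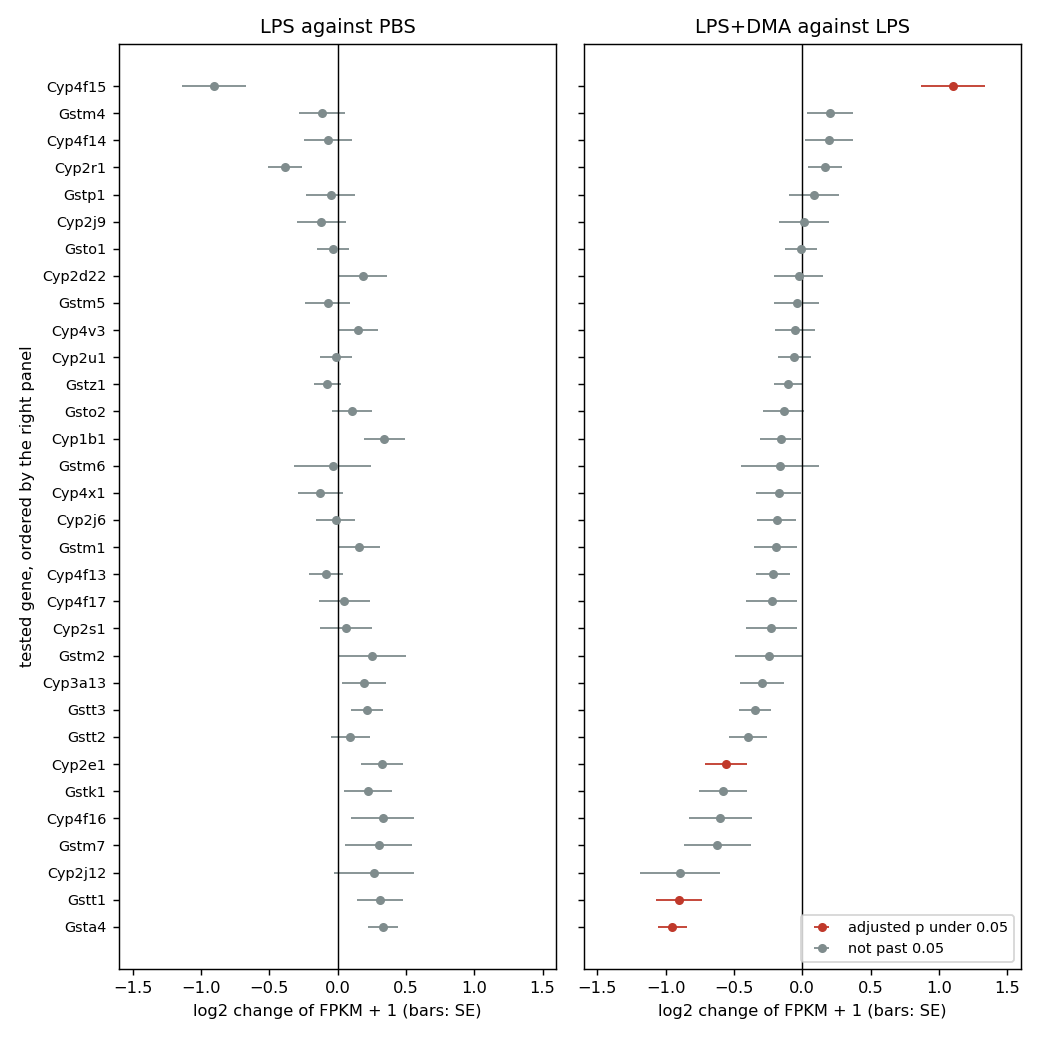
Log2 change of each tested gene (points) with its SE (bars) in LPS against PBS (left) and LPS+DMA against LPS (right), from the same model. Red points passed an adjusted p of 0.05, which 4 genes did on the right and none on the left. Both panels use the LPS libraries.

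Of the 4 genes that passed, Gsta4 had the smallest p. It lies on the plus strand of chromosome 9 from 78090056 to 78116631 (GRCm39). In PBS it was at 28.0, 26.7, 28.7 and 32.9 FPKM. The LPS values were 40.7, 29.9, 40.5 and 36.8 FPKM. With DMA they were 18.5, 17.2, 18.5 and 19.7 FPKM. All 4 LPS+DMA libraries lay below all 8 others, an order whose share over all genes tested was not counted. They were also the most uniform arm, at 18.5 ± 1.01 FPKM. The change from LPS was -0.95 (SE 0.11, adjusted p = 0.00626), with -0.93 in females and -0.98 in males. LPS female replicate 2, the LPS library with forebrain markers and no Gabra6, was at 29.9 FPKM, inside the PBS range. The change in LPS+DMA against PBS was -0.62 (SE 0.11, adjusted p = 0.173).

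Gstt1, a theta transferase that detoxifies small halogenated compounds, lies on the minus strand of chromosome 10 from 75619647 to 75634418 (GRCm39), with Gstt3 and Gstt2 nearby. In PBS it was at 7.39, 5.68, 8.78 and 6.93 FPKM. LPS libraries stood at 12.4, 9.07, 7.18 and 8.36 FPKM, and LPS+DMA libraries at 4.29, 5.48, 3.56 and 4.38. As for Gsta4, every LPS+DMA value was below the 8 others, although PBS female replicate 2 was only just above the highest of them. Gsta4 and Gstt1 were the 2 of 32 genes with this order, and its share over all genes tested was not counted. The change from LPS was -0.90 (SE 0.17, adjusted p = 0.0203), and from PBS it was -0.59 (SE 0.17, adjusted p = 0.324). Without LPS female replicate 1 the adjusted p was 0.0784, and without male replicate 1 or 2 of that arm it was 0.0783 and 0.0699.

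Cyp4f15 was the only member that rose. The gene lies on the plus strand of chromosome 17 from 32904601 to 32922326 (GRCm39), in a cluster with Cyp4f13, Cyp4f14, Cyp4f16 and Cyp4f17. In PBS it was at 3.08, 5.82, 4.73 and 4.53 FPKM. The LPS libraries were at 1.58, 3.78, 1.21 and 1.63 FPKM, and those of LPS+DMA at 5.06, 6.20, 6.06 and 3.92. Every LPS+DMA library was above every LPS library, while PBS and LPS+DMA overlapped. The change from LPS was 1.10 (SE 0.23, adjusted p = 0.0233). The 4 lowest of the 12 values were those of the 4 libraries with Gabra6 above 1 FPKM, PBS female replicate 1 included. Among the 32 genes, Cyp4f15 was the only gene with this order, and Cyp4f16 and Gstk1 had the opposite order, with those 4 libraries highest. Over all genes, 7.66% had either order. With the forebrain and cerebellum markers as a covariate the Cyp4f15 change was 0.46 (adjusted p = 0.608), and without the 4 libraries, which leaves LPS female replicate 2 as the only LPS library, it was 0.49 (adjusted p = 1.00). Leaving out LPS female replicate 1 or either LPS male also ended the call, with adjusted p-values of 0.0858, 0.0861 and 0.0794.

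Cyp2e1 oxidises ethanol and other small solvents, and is known from liver as the P450 that demethylates N,N-dimethylacetamide. It lies on the plus strand of chromosome 7 from 140343652 to 140354900 (GRCm39). Its level in brain was low. In PBS it was at 0.181, 0.477, 0.173 and 0.374 FPKM. LPS libraries were at 0.383, 0.981, 0.559 and 0.616 FPKM, and LPS+DMA libraries at 0.353, 0.0169, 0 and 0.0712. Reads behind these values numbered 17, 38, 14 and 26 in PBS, 28, 66, 46 and 52 in LPS, and 26, 1, 0 and 4 in LPS+DMA. Each LPS+DMA library was below each LPS library, LPS+DMA female replicate 1 by a small margin. Only LPS libraries reached the 0.5 FPKM of the filter, so Cyp2e1 was tested through the arm where it was high. The p-values given here do not allow for this selection. The change from LPS was -0.56 (SE 0.15, adjusted p = 0.0454) on the log2(FPKM + 1) scale, which understates changes at this level. On recovered reads, with voom, it was -3.54 (adjusted p = 0.0317). Leaving out any of the 12 libraries other than LPS+DMA female replicate 1 ended the call, with adjusted p-values of up to 0.126. Liver markers, given above, were near 0 in every library.

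**Figure D4:**
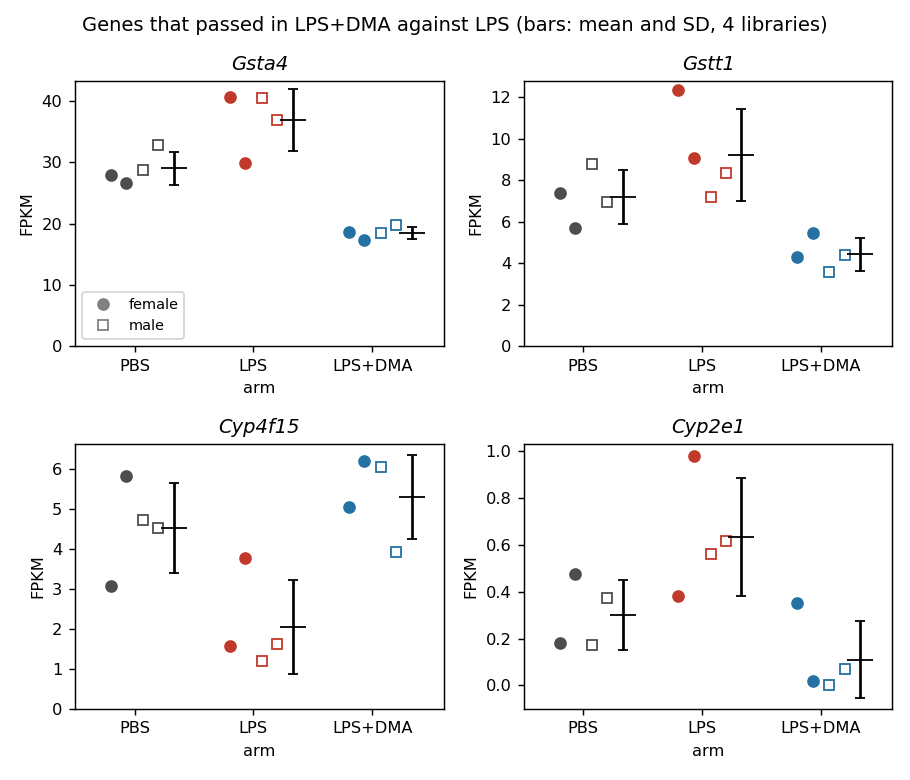
FPKM of the 4 genes that passed in LPS+DMA against LPS, with 1 point per library (filled circles female, open squares male) and the mean and SD of each arm beside them. Gsta4 and Gstt1 show LPS+DMA below both other arms, and Cyp4f15 shows 3 low LPS libraries and LPS female replicate 2 at 3.78 FPKM.

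Promoter sequence was available from RefSeq (GRCm38.p6) for 86 of the 105 genes, 26 of the 32 tested and 3 of the 4 that passed. The 250 bases before the start of Gstt1, Cyp4f15 and Cyp2e1 are shown because these genes passed in opposite directions, with matches to a searched motif in capitals.
Gstt1 (chr10:75797732-75797981, minus strand): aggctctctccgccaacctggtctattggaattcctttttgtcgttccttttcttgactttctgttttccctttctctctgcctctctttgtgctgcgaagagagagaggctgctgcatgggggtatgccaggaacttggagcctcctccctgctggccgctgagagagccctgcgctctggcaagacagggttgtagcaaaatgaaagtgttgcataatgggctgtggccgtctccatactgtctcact
Cyp4f15 (chr17:32685409-32685658, plus strand): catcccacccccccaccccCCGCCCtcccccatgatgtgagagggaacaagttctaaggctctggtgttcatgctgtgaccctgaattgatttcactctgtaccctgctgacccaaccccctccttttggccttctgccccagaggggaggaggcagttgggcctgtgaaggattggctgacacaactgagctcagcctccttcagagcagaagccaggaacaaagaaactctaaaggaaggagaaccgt
Cyp2e1 (chr7:140763569-140763818, plus strand): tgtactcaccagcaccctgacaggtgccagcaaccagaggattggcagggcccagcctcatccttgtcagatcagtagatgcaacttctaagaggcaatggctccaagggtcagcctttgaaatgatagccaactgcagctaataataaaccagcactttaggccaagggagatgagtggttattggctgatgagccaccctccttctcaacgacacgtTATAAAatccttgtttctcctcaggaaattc
Each is written in the direction of transcription. The motifs searched, on both strands, were the antioxidant response element core TGACNNNGC bound by NRF2, the xenobiotic response element core GCGTG bound by the aryl hydrocarbon receptor, the TATA box TATAAA and the GC box GGGCGG. The antioxidant core was present in 10.2% of 32851 promoters of this length and in 4.95% of 101 promoters of the genes described here. The corresponding shares were 28.2% and 19.8% for the xenobiotic core, 12.4% and 28.7% for the TATA box, and 32.7% and 24.8% for the GC box. The 37 promoters of tested genes held the antioxidant core in 8.11%, the xenobiotic core in 27.0%, the TATA box in 8.11% and the GC box in 48.6%. For the TATA and GC boxes the tested genes and the whole set thus lay on opposite sides of the share over all promoters. Cyp2e1 held a TATA box at 31 to 26 bases before its start, and Cyp4f15 a GC box on the opposite strand at 231 to 226 bases before its start. In these 3 windows the letters of the antioxidant and xenobiotic cores were not found.

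In LPS+DMA against LPS, none of the 32 genes passed when the forebrain covariate, or choroid plexus and red blood cell covariates, entered the model, when the 4 libraries with Gabra6 were left out, or when only the LPS and LPS+DMA libraries were fitted. Over all genes the counts that passed in these fits were 2, 0, 5 and 5. Gsta4 was the 1 member that passed with the first LPS female, the first LPS male or the second LPS male left out, when 11, 7 and 22 genes passed in all. Leaving out LPS female replicate 2 raised the counts to 6 members and 3465 genes. Gsta4 passed in 20 of 24 alternative settings, Gstt1 and Cyp4f15 in 16 of 24 each, and Cyp2e1 in 6 of 23. None of the 4 changed direction in any of them. The part of brain region, choroid plexus and cell type in these changes was not tested beyond these fits.

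**Figure D5:**
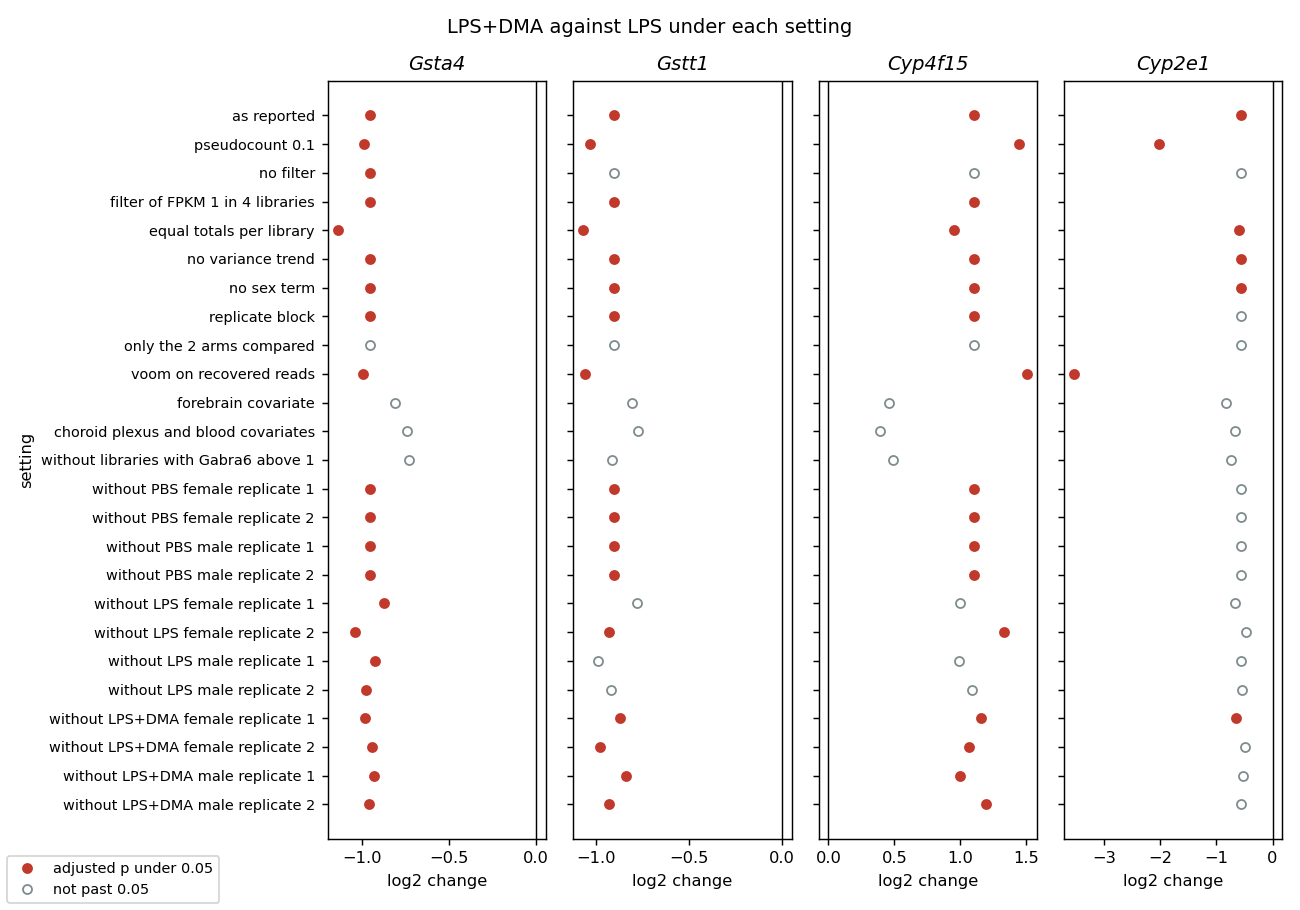
Log2 change in LPS+DMA against LPS (horizontal axis) of the 4 genes that passed, as reported and under each alternative setting (rows), with filled points where the adjusted p was under 0.05. Gsta4 stays between -1.14 and -0.73, and Cyp4f15 drops to 0.39 to 0.49 in the 3 settings that adjust for or leave out tissue composition.

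Several other genes had lower means in LPS+DMA than in LPS without passing. In 8 of the 32 genes every LPS+DMA library lay on the same side of every LPS library, a pattern shown by 12.2% of all genes tested. They were the 4 genes above, among them Cyp2e1, which entered the test only through LPS libraries. The others were Cyp2j12, Gstt2, Gstt3 and Gstz1, all 4 lower in LPS+DMA. Each of the 3 tested theta transferases was lower in every LPS+DMA library than in any LPS library. Gstt2 was at 1.05, 0.535, 0.871 and 0.971 FPKM in PBS, 0.844, 0.903, 0.953 and 1.19 in LPS, and 0.634, 0.709, 0.323 and 0.351 in LPS+DMA (change from LPS -0.40, SE 0.14, adjusted p = 0.0967). Gstt3 was at 0.594, 0.634, 0.516 and 0.820 FPKM in LPS+DMA, beside its LPS and PBS values above (-0.35, SE 0.12, adjusted p = 0.0819). The theta genes are neighbours on chromosome 10.

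Cyp2j12, a further member of the arachidonate-oxidising 2J group, was at 3.28, 1.09, 2.34 and 3.40 FPKM in PBS, 2.49, 2.21, 3.68 and 4.26 in LPS, and 1.52, 1.24, 0.314 and 2.12 in LPS+DMA. Its change was -0.89 (SE 0.29, adjusted p = 0.0764). PBS female replicate 2 lay inside the LPS+DMA range. Gstz1, the maleylacetoacetate isomerase of tyrosine breakdown, was at 5.37, 6.04, 7.26 and 7.12 FPKM in PBS, 6.14, 5.88, 6.11 and 6.01 in LPS, and 5.35, 5.80, 5.38 and 5.64 in LPS+DMA. The LPS and LPS+DMA arms were separated by little, with a change of -0.11 (SE 0.10, adjusted p = 0.519). Gstk1, the kappa transferase of mitochondria and peroxisomes, averaged 7.14 ± 1.49 FPKM in LPS and 4.41 ± 0.775 in LPS+DMA (-0.58, SE 0.17, adjusted p = 0.0575). Gstm7, a mu transferase, was at 13.2, 9.09, 14.8 and 15.0 FPKM in PBS, 18.1, 8.63, 18.9 and 21.7 in LPS, and 10.8, 12.2, 7.78 and 9.84 in LPS+DMA (-0.62, SE 0.25, adjusted p = 0.125). Its 3 highest values were those of the LPS libraries with Gabra6, and LPS female replicate 2 was below 3 of the 4 LPS+DMA libraries. Cyp4f16 averaged 2.50 ± 1.02 FPKM in LPS and 1.24 ± 0.408 in LPS+DMA (-0.60, SE 0.23, adjusted p = 0.117). For Gstm7 and Cyp4f16 the direction turned when the 4 libraries with Gabra6 were left out (0.17 and 0.08), where LPS female replicate 2 is the only LPS library.

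The other 21 tested genes had changes between -0.30 and 0.20, and none of them had an unadjusted p under 0.05. Within the mu class the changes ran from -0.62 to 0.20, in family 2 from -0.89 to 0.17, and in family 4 from -0.60 to 1.10.

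LPS+DMA was also set against PBS, to see how far the brains of mice given both agents lay from the controls. No member passed (2 of 19571 genes passed, 0.0102%), and 3 of the 32 had an unadjusted p under 0.05, against 2235 of 19571 genes in all. These were Gsta4 and Gstt1, with the values given above, and Cyp4f13, a fatty acid hydroxylase, at 2.43 ± 0.325 FPKM in PBS and 1.78 ± 0.311 in LPS+DMA (-0.30, SE 0.13, adjusted p = 0.418). Gsta4 and Gstt1 were the 2 of 32 genes in which the arms did not overlap, against 6.64% of all genes tested. Means were lower in LPS+DMA for 24 of 32 genes, with a median change of -0.15 against 0.00014 over all genes. Of all genes tested, 50.1% were higher.

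Several of these genes differ between the sexes in mouse liver, so females were compared with males over the 3 arms. None of the 32 passed, against 0.0358% of all genes tested. The 4 genes with an unadjusted p under 0.05 were P450s with lower means in females, and over all genes 1766 of 19571 passed that level, 816 of them lower in females. Cyp3a13, the family 3 P450 found outside the liver, averaged 0.226 ± 0.147 FPKM in females and 0.606 ± 0.292 in males (SD, n = 6 each, change -0.38, SE 0.13, limma adjusted p = 0.503). Only male libraries reached the 0.5 FPKM of the filter for Cyp3a13, so it was tested through the sex where it was high. Cyp2j6 averaged 6.68 ± 1.06 and 8.34 ± 1.29 FPKM (adjusted p = 0.530), Cyp4f17 1.13 ± 0.476 and 1.69 ± 0.331 (adjusted p = 0.536), and Cyp2s1 0.878 ± 0.235 and 1.41 ± 0.476 (adjusted p = 0.550). The difference between the sexes in the response was tested as well, and no gene passed in LPS against PBS (0.0% of all genes tested) or in LPS+DMA against LPS (0.0%). At an unadjusted p under 0.05, limma gave 0 of the 32 genes and 491 of all genes in the former, and 1 of the 32 (Gstm7) and 1008 of all genes in the latter.

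Genes that work beside the 2 families were described by 5 lists. In LPS against PBS and in LPS+DMA against PBS no listed gene passed. The shares of all genes tested to set beside each list in LPS+DMA against LPS are 5.79% passing as higher and 3.88% as lower. In LPS+DMA against LPS none of the 14 tested partners and regulators of P450s (of 17 listed) passed, 7 of them being higher and 7 lower. The smallest p there was that of Nr1h3, the oxysterol receptor LXR alpha, at 2.53 ± 1.14 FPKM in LPS and 0.858 ± 0.504 in LPS+DMA (-0.90, SE 0.29, adjusted p = 0.0696). Ahrr, Nr1i2 and Hnf4a, a repressor and receptors known for setting liver P450 levels, were below the filter.

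P450s of the other families act mainly on sterols and signalling lipids. Of 8 tested from a list of 18, 1 rose and 3 fell in LPS+DMA against LPS. Cyp46a1, the neuronal cholesterol hydroxylase, rose from 17.9 ± 14.5 FPKM in LPS to 43.8 ± 13.5 in LPS+DMA (1.44, SE 0.36, adjusted p = 0.0329). Cyp27a1, a sterol hydroxylase, fell from 7.89 ± 4.28 to 1.86 ± 0.444 FPKM (-1.47, SE 0.35, adjusted p = 0.0298). Cyp51, which acts in cholesterol synthesis, fell from 19.5 ± 2.07 to 12.5 ± 2.28 FPKM (-0.61, SE 0.13, adjusted p = 0.0238). Cyp20a1, a P450 without a settled substrate, fell from 6.76 ± 0.488 to 3.999 ± 0.739 FPKM (-0.64, SE 0.12, adjusted p = 0.0203). In PBS these 4 genes averaged 33.5 ± 7.29, 4.60 ± 1.26, 18.0 ± 2.40 and 5.53 ± 0.321 FPKM.

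Glutathione supply and NRF2 target genes were tested for 20 of 20 listed genes, and 0 rose and 2 fell in LPS+DMA against LPS. Nfe2l2, which encodes NRF2, the activator of many transferase genes, fell from 5.72 ± 0.378 to 4.09 ± 0.369 FPKM (-0.40, SE 0.10, adjusted p = 0.0340) and had averaged 4.03 ± 0.305 in PBS. Glrx, a glutaredoxin that reverses glutathione bonds on proteins, fell from 5.53 ± 0.538 to 4.07 ± 0.498 FPKM (-0.37, SE 0.09, adjusted p = 0.0357). The enzymes of glutathione synthesis did not pass. Gclm, the regulatory subunit of the first step, averaged 14.2 ± 3.22 FPKM in LPS and 9.69 ± 0.558 in LPS+DMA (adjusted p = 0.0761), and Gss, of the last step, 3.27 ± 0.719 and 1.94 ± 0.521 (adjusted p = 0.0666). The median change of the list was -0.18, against 0.01 over all genes.

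Among 14 tested enzymes that use glutathione outside the families above, 0 rose and 3 fell. Mean log2(FPKM + 1) was lower in LPS+DMA than in LPS for all 14, while 51.1% of all genes tested were higher. Mgst1, a membrane-bound transferase, fell from 7.60 ± 0.988 to 4.48 ± 1.08 FPKM (-0.66, SE 0.15, adjusted p = 0.0250). Clic1, a transferase-like chloride channel protein, fell from 9.25 ± 3.90 to 3.95 ± 0.404 FPKM (-0.96, SE 0.27, adjusted p = 0.0487), and Ltc4s, which makes leukotriene C from glutathione, from 2.50 ± 0.583 to 1.17 ± 0.655 (-0.72, SE 0.21, adjusted p = 0.0491). Of 14 tested genes of drug and lipid-mediator handling, 1 rose and 0 fell. Ephx4, an epoxide hydrolase family member, rose from 8.55 ± 6.10 FPKM in LPS to 20.5 ± 5.58 in LPS+DMA (1.34, SE 0.26, adjusted p = 0.0213). Ephx1, the microsomal epoxide hydrolase that acts after P450s, averaged 15.1 ± 3.30 FPKM in LPS and 10.1 ± 1.71 in LPS+DMA (-0.53, SE 0.16, adjusted p = 0.0617).

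Markers of tissue and cell types moved in the same comparison, where 5.79% of all genes tested passed as higher and 3.88% as lower. Of 10 cortex and hippocampus markers, 8 rose and 0 fell, and of 12 choroid plexus markers, 9 fell and 0 rose. Of 6 microglial markers 3 fell, and of 5 oligodendrocyte markers 1 fell, with all 11 lower in LPS+DMA. Of 7 astrocyte markers, 1 rose and 1 fell, and of 9 cerebellar markers, none passed although all 9 were lower. Their part in the changes of the P450s and transferases was not tested beyond the fits with marker covariates given above.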

How the data were processed

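The deposited table gives FPKM for 56748 genes in 12 libraries, computed by the authors from aligned reads. The aligners HISAT2 2.2.1 and STAR, the counter featureCounts 2.0.6 and the build GRCm39 appear in the submitters' processing notes, beside fastp, GATK, edgeR 4.0.16 and DESeq2 1.42.0, without roles or order. Per the labels' protocols, poly-A RNA was sequenced, with both a stranded and an unstranded preparation described. Each library is a separate mouse per the labels.

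Multiplying FPKM by gene length returned whole read numbers (within 0.1 reads, up to 1000 reads) for 100% of values, which gave read counts for depth, detection and 1 alternative. No per-sample column was left aside. No pair of libraries was identical (chi-square divided by its degrees of freedom was at least 24.8 in 66 pairs).

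Tests used limma 3.58.1 in R 4.3.3 on log2(FPKM + 1) for genes reaching 0.5 FPKM in 2 or more libraries, with additive terms for treatment and sex, a variance trend, robust moderation and Benjamini-Hochberg adjustment over 19571 genes, called at 0.05. Sex differences in response used 1 mean per arm and sex. The script was tested on simulated data. Replicate numbers were not used as pairs in these tests, as the labels do not say whether they pair the mice.

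Members and lists were chosen with earlier results of these data known. Values per library are given for members called in any comparison, members whose arms do not overlap in a treatment comparison, and the 5 most abundant of each family. Listed genes are named by smallest p, up to 4 per list. Cyp1a1, Cyp1a2 and Cyp2b10, and Gstk1, Cyp4f16 and other members with a small unadjusted p, were named after their values were seen. Promoters come from RefSeq (GRCm38.p6) and are not on the build of the table, so no coordinate was carried across.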

Additional observations from a re-analysis of the deposited data

Results flagged for a closer look

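In each tested gene and arm, the highest or lowest of the 4 libraries was compared with the others by Dixon's ratio, and 5 of the 96 groups checked exceeded its 95% critical value, where chance gives about 1 in 20. Cyp4f15 was at 3.78 FPKM in LPS female replicate 2, against 1.21 to 1.63 in the other LPS libraries, and this library is the LPS library without Gabra6. Cyp2j6 was at 9.62 FPKM in LPS+DMA male replicate 2, against 5.60 to 6.05. In the same library Cyp4v3, a fatty acid hydroxylase, was at 2.80 FPKM, against 1.90 to 1.94. Gstm4, a mu transferase, was at 2.70 FPKM in PBS female replicate 2, against 4.35 to 4.66 in the other PBS libraries. Gstm6, another mu transferase, was at 6.24 FPKM in PBS male replicate 1, against 2.14 to 2.58.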

How the results depend on the processing

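The number of members that passed in LPS+DMA against LPS was 4 as reported. It was 1 with no filter on low values and 9 with equal totals per library, and 0 with only the 2 arms compared, with the forebrain covariate, with the choroid plexus and blood covariates, and without the libraries with Gabra6 above 1 FPKM. Leaving out a library gave between 1 (without LPS female replicate 1 or either LPS male) and 6 (without LPS female replicate 2). Over all genes the count of 1892 became 83 with no filter, 5 with 2 arms, 2 and 0 with the covariates, 5 without the Gabra6 libraries, 2874 with equal totals, and 7 to 3465 with a library left out. In LPS against PBS, leaving out a library gave 0 to 1 members, with 1 only without LPS female replicate 2, and every other setting gave 0. LPS+DMA against PBS and female against male gave 0 members in every setting run. With the replicate block, 5 members and 2040 genes passed in LPS+DMA against LPS. To check the replicate numbers, the deviation of replicate 1 from the mean of its arm and sex was compared between arms within a sex. The correlations of these deviations ran from -0.071 to 0.45 over 6 pairs of arms. Across 25 results for single genes and 581 values, 3 reversed, 37 lost the threshold, 12 gained it and 529 did neither. The reversed values were Cyp4f15 in LPS+DMA against PBS with the forebrain covariate (-0.016), and Cyp4f16 (0.078) and Gstm7 (0.17) in LPS+DMA against LPS without the Gabra6 libraries. With no filter and with fewer arms or libraries, more genes or fewer samples entered the fit, and otherwise the cause was not tested. Depth limits the genes with few reads, among them Cyp2e1, with 1 and 0 reads in LPS+DMA female replicate 2 and male replicate 1, and the 4 Cyp2r1 values in LPS rest on 4 to 13 reads.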

Other observations

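Cyp3a57, a family 3 P450 too low to be tested, had 84 reads (1.29 FPKM) in LPS+DMA male replicate 1, 6 reads in LPS+DMA female replicate 2 and at most 2 in each of the other 10 libraries. It was chosen after its values were seen. In the same library Cyp2j12 (0.314 FPKM) and Cyp4x1 (2.41 FPKM) had their lowest values of the 12, and Cyp2e1 had no read. Gsta2, an alpha transferase also below the filter, was detected in 6 libraries, at 0.284 ± 0.189 FPKM (SD, n = 4 per arm) in PBS, 0.0451 ± 0.0615 after LPS and 0.136 ± 0.176 with DMA, which is the opposite order of means to that of Gsta4 between PBS and LPS. Gsta2 was likewise chosen after its values were seen.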
